A study of Mus musculus with 6 samples.

Results

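The genes Nras, Hras, Araf, Braf, Map2k1, Map2k2 and Mapk3 encode a core of the RAS, RAF, MEK and ERK signalling chain, and their transcripts were followed in mouse MLL-ENL/NrasG12D cells, a line of MLL-fusion leukemia cells. The members were the rows of the deposited table whose symbol is one of these 7 names, and all 7 were found among 11644 genes. One group of 3 libraries came from cells treated for 72 h with the PRMT5 inhibitor EPZ 015666 at 5 µM, called Prmt5i in the labels, and the other group of 3 libraries came from cells given DMSO, the solvent. Cells were treated again on day 2. Both groups carry the MLL-ENL fusion and the activated Nras allele, so neither shows the chain without oncogenic Nras. The labels name 1 cell line and do not say how the activated allele was introduced. Any of its reads that were counted under Nras cannot be told apart from those of the normal gene. The series text calls the 3 replicates independent without saying what was repeated, so p-values set the group difference against the spread between these libraries, which may be technical. Polyadenylated RNA was sequenced.

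RAS proteins are small GTPases that switch on when they exchange GDP for GTP. Active RAS recruits RAF kinases to the membrane, RAF kinases phosphorylate the MEK kinases, and MEK kinases phosphorylate the ERK kinases, which act on many cytosolic and nuclear proteins. Activating mutations of Nras occur in myeloid leukemias and often accompany MLL fusions. The data here are transcript levels, and the phosphorylation of the kinases was not measured.

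Nras and Hras encode closely related proteins from separate genes, and they are the only members called higher with the inhibitor, so their reads must be told apart by sequence. Over the aligned coding sequence of the GENCODE release on mm10, Nras and Hras were 76.2% identical in bases, and the longest run they shared was 23 bases. Braf and Araf were 67.6% identical with a longest shared run of 17 bases. Map2k1 and Map2k2 were 78.4% identical and shared a run of 56 bases, so a short read inside that run could belong to either MEK gene. How reads that match several places were counted is not given in the sources used here. The annotation lists 1 pseudogene that carries the Nras name.

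The libraries held 11335948 to 15551525 reads assigned to genes with the inhibitor and 15505127 to 19197912 reads with DMSO. DMSO library 2 stood apart from the other DMSO libraries in stress genes: Trib3, a pseudokinase induced by stress, was at 1376 normalized counts there, against 126 in DMSO library 1 and 218 in DMSO library 3. Among genes of the lists below, it also held the highest DMSO values of Rasgrp3 (133), Pea15a (233), Rap2a (360) and Ier3 (103). DMSO libraries 1 and 3 had 41.6 and 72.7 for Rasgrp3, 89.7 and 126 for Pea15a, 203 and 198 for Rap2a, and 57.1 and 57.9 for Ier3. Other list genes did not peak there, such as Mknk2, which had its lowest DMSO value (4833) in this library. Of 10 myeloid progenitor markers, 9 were measured, with a summed level of 31329 to 33025 normalized counts in inhibitor libraries and 23422 to 26730 in DMSO libraries. The markers went both ways, with 4 called higher, 3 lower and 2 not called, and a median log2 fold change of -0.01. Itgam, an integrin of mature myeloid cells, was higher with the inhibitor (log2 fold change 1.93, limma adjusted p = 5.44e-08), as was Cd34, a progenitor surface protein (0.60, adjusted p = 0.000487), and these genes gained the most counts of the 9 markers. The granule protease gene Prtn3 was lower (log2 fold change -1.84, limma adjusted p = 9.97e-06), as were the granule enzyme gene Mpo (-1.11, adjusted p = 0.0215, groups overlapping) and the transcription factor gene Cebpa (-0.54, adjusted p = 0.00277). Marker genes of B cells, T cells and stroma had 1 measured member of 5 each, with summed levels of at most 28.5 normalized counts in any library, and none of the 5 erythroid markers is in the table. The part of these opposed marker changes in the results below was not tested. In RNA from whole cultures, fewer cells of a kind and less RNA per cell cannot be told apart. Prmt5 itself had 2508 ± 373 normalized counts with the inhibitor and 2784 ± 366 with DMSO (SD, n = 3 each; limma adjusted p = 0.316), which does not check the inhibition, since the compound acts on the enzyme.

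At the top of the chain the RAS members Nras and Hras were higher with the inhibitor, the RAF member Braf was lower, and Araf, Map2k1, Map2k2 and Mapk3 did not pass the test. Of the 7 members, 2 were called higher and 1 lower at a limma adjusted p under 0.05. Over all genes 46.5% were called in either direction, 23.6% higher and 22.9% lower, so 3 of 7 is close to that background. The median log2 fold change of the 7 members was -0.07, and that of all genes was 0.00. The libraries of the groups did not overlap for 3 of the 7 members, against 56.0% of all genes. Without DMSO library 2 the same 3 genes were called, with log2 fold changes of 0.72 for Nras, 0.48 for Hras and -0.35 for Braf, and Map2k1 was called as well. The call on Braf depended on single libraries, as given with its values below.

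**Figure D1:**
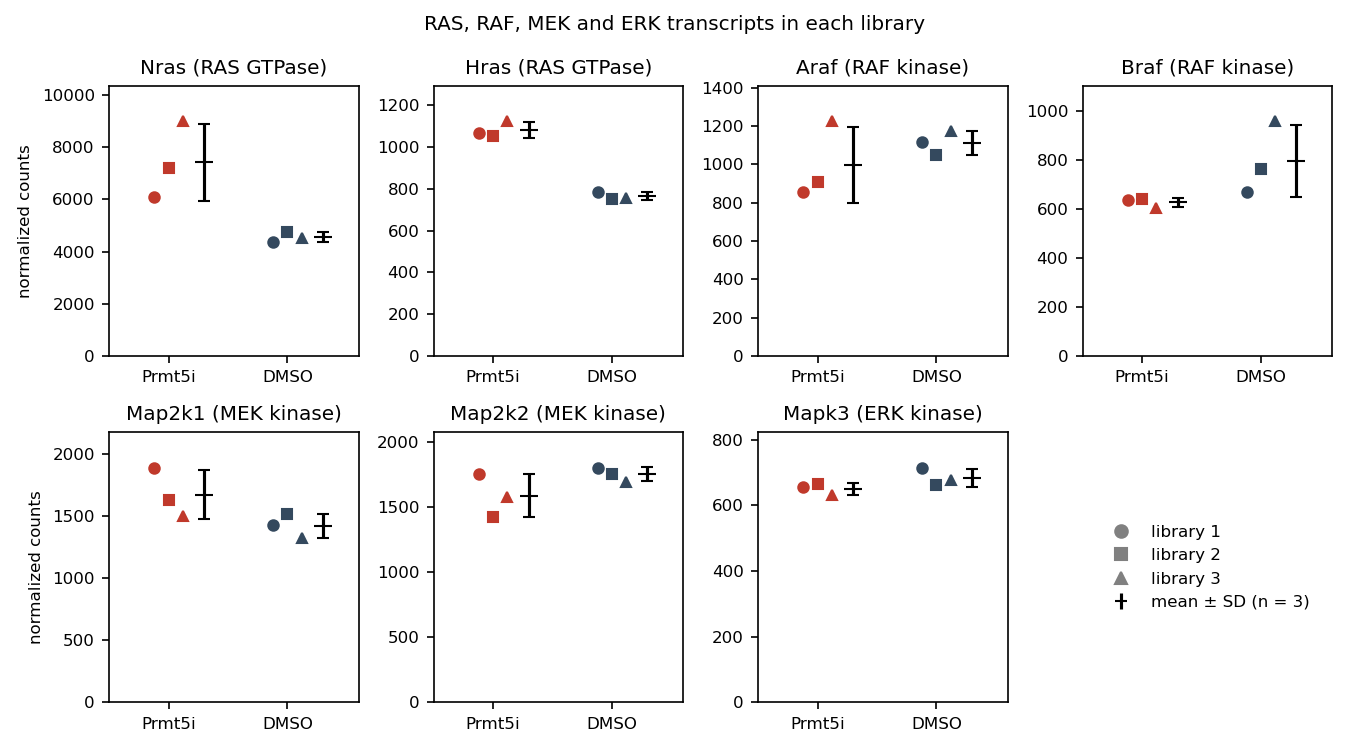
Normalized counts (vertical axis, from 0) of the 7 core genes in each library, with inhibitor libraries (Prmt5i, red) left of DMSO libraries (dark blue), and with black marks for the mean ± SD of 3 libraries. The Nras and Hras panels show all inhibitor libraries above all DMSO libraries, the Braf panel shows them all below, and the other panels overlap.

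Nras (chromosome 3, 103058285 to 103067914, plus strand, mm10) encodes the RAS protein that is activated by mutation in these cells. It had 6081, 7199 and 9003 normalized counts in inhibitor libraries 1, 2 and 3, against 4373, 4751 and 4514 in DMSO libraries 1, 2 and 3. Every inhibitor library lay above every DMSO library, and the inhibitor libraries were much more spread than the DMSO libraries. The means were 7428 ± 1474 with the inhibitor and 4546 ± 191 with DMSO (SD, n = 3 each), a ratio of 1.63. The log2 fold change was 0.69 ± 0.12 (SE; limma adjusted p = 0.000871), larger in size than that of 79.7% of all genes. The rise stayed past the threshold without inhibitor library 3, at a log2 fold change of 0.54 (limma adjusted p = 0.00153), and ranged up to 0.83 without inhibitor library 1. The shares of the activated and of the normal Nras in this rise cannot be told apart.

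Hras (chromosome 7, 141189105 to 141194005, minus strand, mm10) encodes another of the classical RAS proteins. It had 1065, 1053 and 1123 normalized counts in inhibitor libraries 1, 2 and 3, against 786, 752 and 758 in DMSO libraries 1, 2 and 3. The groups did not overlap, and the libraries of each group lay close together. The means were 1081 ± 37.7 with the inhibitor and 765 ± 18.0 with DMSO (SD, n = 3 each), a ratio of 1.41 (log2 fold change 0.50 ± 0.08 SE, limma adjusted p = 0.000364). With any single library left out, the log2 fold change of Hras stayed between 0.47 and 0.52 and past the threshold. On the opposite strand next to Hras lies Lrrc56, a gene with 21.1 ± 1.12 normalized counts with the inhibitor and 41.1 ± 1.03 with DMSO (SD, n = 3 each), which was lower with the inhibitor (limma adjusted p = 0.00497).

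Braf (chromosome 6, 39603237 to 39725463, minus strand, mm10) encodes a RAF kinase with high basal activity towards MEK. It had 637, 639 and 605 normalized counts in inhibitor libraries 1, 2 and 3, against 669, 763 and 958 in DMSO libraries 1, 2 and 3. The groups did not overlap, but DMSO library 1 lay close to the inhibitor libraries and DMSO library 3 far above them. The means were 627 ± 19.3 with the inhibitor and 797 ± 147 with DMSO (SD, n = 3 each), a ratio of 0.787. The log2 fold change of -0.33 ± 0.12 (SE) was just past the threshold (limma adjusted p = 0.0397). Without DMSO library 3 it was -0.19 (limma adjusted p = 0.191), and the call was also lost without inhibitor library 1 (-0.34, adjusted p = 0.0709), 2 (-0.34, adjusted p = 0.0926) or 3 (-0.30, adjusted p = 0.0975), with folds close to that of all libraries. Braf overlaps Ndufb2 on the opposite strand, which had 633 normalized counts on average with the inhibitor and 532 with DMSO (limma adjusted p = 0.0589), and a ferritin pseudogene on its own strand.

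Araf (chromosome X, 20797814 to 20860519, plus strand, mm10) encodes the RAF kinase with the lowest basal activity. It had 857, 908 and 1225 normalized counts in inhibitor libraries 1, 2 and 3, against 1117, 1049 and 1172 in DMSO libraries 1, 2 and 3. Inhibitor libraries 1 and 2 lay below all DMSO libraries and inhibitor library 3 lay above them. The means were 996 ± 199 with the inhibitor and 1113 ± 61.9 with DMSO (SD, n = 3 each). The log2 fold change was -0.18 ± 0.12 (SE) and missed the threshold (limma adjusted p = 0.259), and its 95% interval ran from -0.44 to 0.09. Without inhibitor library 3 it was -0.33 and past the threshold (limma adjusted p = 0.0122). In inhibitor library 3, Nras was likewise at its highest of the 6 libraries, whereas Braf was at its lowest.

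Map2k1 (chromosome 9, 64185770 to 64253631, minus strand, mm10) encodes MEK1. It had 1893, 1630.5 and 1506 normalized counts in inhibitor libraries 1, 2 and 3, against 1427, 1522 and 1327 in DMSO libraries 1, 2 and 3. Inhibitor libraries 1 and 2 lay above all DMSO libraries, and inhibitor library 3 lay within the DMSO range. The means were 1676 ± 198 with the inhibitor and 1425 ± 97.1 with DMSO (SD, n = 3 each). The log2 fold change of 0.23 ± 0.10 (SE; 95% interval 0.02 to 0.44) did not pass the test after adjustment (limma adjusted p = 0.0731). It passed without inhibitor library 3 (0.30, adjusted p = 0.0289) and without DMSO library 2 (0.28, adjusted p = 0.0435).

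Map2k2 (chromosome 10, 81105915 to 81133975, plus strand, mm10) encodes MEK2, the close relative of MEK1. It had 1758, 1426 and 1582 normalized counts in inhibitor libraries 1, 2 and 3, against 1805, 1759 and 1698 in DMSO libraries 1, 2 and 3. Inhibitor libraries 2 and 3 lay below all DMSO libraries and inhibitor library 1 within their range. The means were 1589 ± 166 with the inhibitor and 1754 ± 54.0 with DMSO (SD, n = 3 each). The log2 fold change was -0.15 ± 0.09 (SE) and missed the threshold (limma adjusted p = 0.197), with a 95% interval from -0.34 to 0.05.

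Mapk3 (chromosome 7, 126759601 to 126765819, plus strand, mm10) encodes ERK1, the last kinase of the chain. It had 655, 664 and 631 normalized counts in inhibitor libraries 1, 2 and 3, against 715, 661 and 676 in DMSO libraries 1, 2 and 3. The groups overlapped, and the means were 649.9 ± 17.3 with the inhibitor and 684 ± 27.8 with DMSO (SD, n = 3 each). The log2 fold change of -0.07 ± 0.08 (SE; limma adjusted p = 0.493) was smaller in size than those of the other 6 members, and its 95% interval ran from -0.26 to 0.11.

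**Figure D2:**
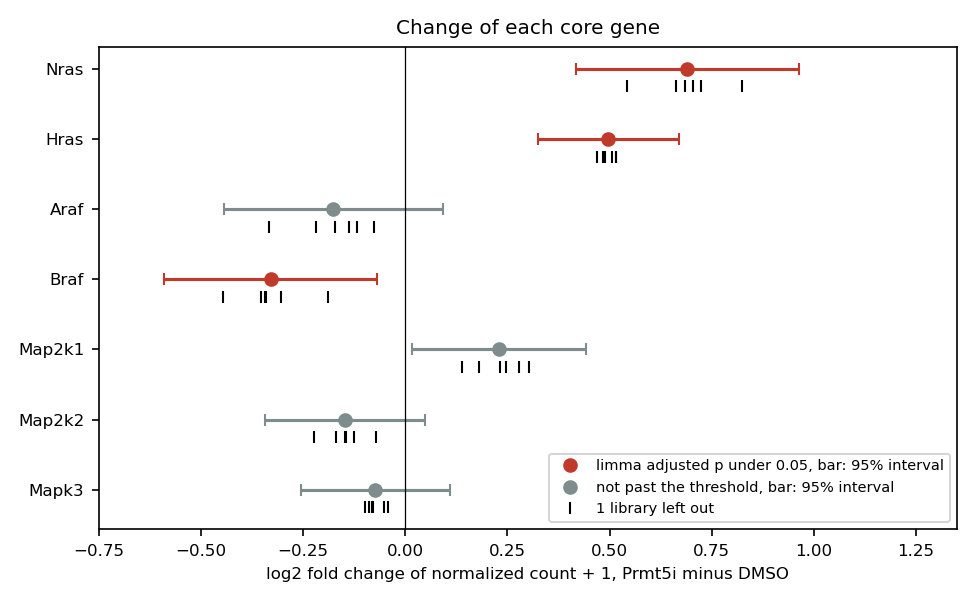
Log2 fold change of the normalized count + 1, inhibitor minus DMSO (horizontal axis), for each core gene, with dots for the value over 6 libraries, bars for its 95% interval and black ticks for the values with 1 library left out. Nras at 0.69 and Hras at 0.50 keep intervals above 0, Braf at -0.33 lies below 0, and the intervals of Araf, Map2k2 and Mapk3 include 0.

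Ratios between the genes of a tier were taken within each library, where the size factor cancels; they are ratios of normalized counts and are not corrected for gene length. Map2k1 stood at 1.08, 1.14 and 0.952 times Map2k2 in inhibitor libraries 1, 2 and 3, against 0.790, 0.865 and 0.782 times in DMSO libraries 1, 2 and 3. All inhibitor libraries lay above all DMSO libraries in this ratio, although the groups overlapped for each gene alone. Of all single genes 56.0% did not overlap between the groups, and no such share was computed for ratios. The mean log2 ratio of Map2k1 to Map2k2 was 0.08 ± 0.13 with the inhibitor and -0.30 ± 0.08 with DMSO (SD, n = 3 each). The difference of 0.38 ranged from 0.32 to 0.45 with 1 library left out, and no test was run on it. Nras stood at 5.71, 6.84 and 8.01 times Hras with the inhibitor and at 5.56, 6.31 and 5.96 times with DMSO, and these ranges overlapped. Braf stood at 0.744, 0.704 and 0.494 times Araf with the inhibitor and at 0.599, 0.727 and 0.817 times with DMSO, and these ranges overlapped as well.

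**Figure D3:**
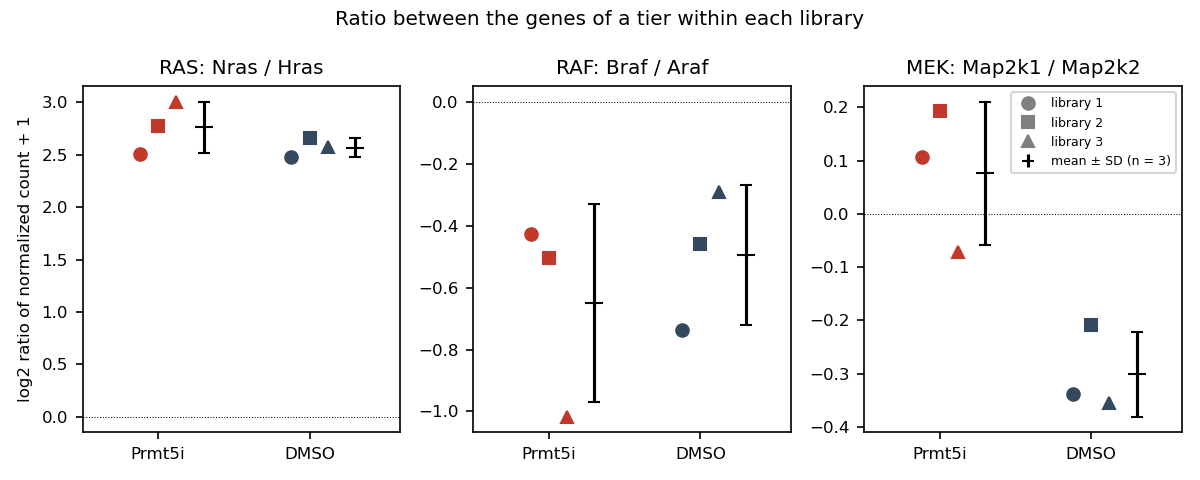
Log2 ratio of the normalized counts + 1 (vertical axis, a separate scale in each panel) of Nras to Hras, Braf to Araf and Map2k1 to Map2k2 in each library, inhibitor (Prmt5i, red) left of DMSO (dark blue), with the mean ± SD of 3 libraries in black. The groups separate in the MEK panel, where the means are 0.08 with the inhibitor and -0.30 with DMSO, and overlap in the RAS and RAF panels. Of all single genes, 56.0% separate between the groups.

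Levels of different members were compared as normalized counts per kilobase of the longest coding transcript. For Araf that transcript has 5 exons and a coding sequence of 558 bases. The Araf transcript with the longest coding sequence has 16 exons and 1812 coding bases. Nras was the highest of the 7 in both groups, with 1662 ± 329.9 per kilobase with the inhibitor and 1017 ± 42.7 with DMSO (SD, n = 3 each). This uses the annotated Nras transcript, and whether its length applies to the activated Nras is not known. The MEK genes followed: Map2k1 had 688 ± 81.1 per kilobase with the inhibitor and 585 ± 39.9 with DMSO, and Map2k2 had 661 ± 69.0 with the inhibitor and 729 ± 22.4 with DMSO (SD, n = 3 each). Their ranges overlapped in inhibitor libraries, whereas in DMSO libraries every Map2k2 value lay above every Map2k1 value. Hras had 382 ± 13.3 per kilobase with the inhibitor and 271 ± 6.37 with DMSO, Mapk3 361 ± 9.62 with the inhibitor and 380.1 ± 15.4 with DMSO, and Araf 349 ± 69.8 with the inhibitor and 389.9 ± 21.7 with DMSO (SD, n = 3 each). In inhibitor libraries the values of Araf overlapped those of Hras and of Mapk3, and in DMSO libraries Araf and Mapk3 overlapped while Hras lay below both. Braf was the lowest, with 64.5 ± 1.99 per kilobase with the inhibitor and 81.9 ± 15.2 with DMSO (SD, n = 3 each). The places of Nras at the top and Braf at the bottom were the same with merged exons as the length, but the order between them depended on the length. With merged exons every Map2k2 value lay below every Map2k1 value in both groups, with Map2k2 means of 281 per kilobase with the inhibitor and 309.7 with DMSO. Araf, at 152 with the inhibitor and 170.1 with DMSO, then lay below all Hras and Mapk3 values of the same group, because the merged exons of Map2k2 and Araf are 5663 and 6541 bases long against 2405 and 2854 for the longest coding transcript.

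For each member, the 2 other genes of at least 100 normalized counts with the smallest root mean square difference from its centred log2 profile over the 6 libraries were picked out of 9093. For Nras they were Tomm20, a receptor of the mitochondrial import machinery (difference 0.05, with 8448 normalized counts on average with the inhibitor and 5323 with DMSO), and Cyba, a subunit of the phagocyte oxidase (difference 0.05). For Hras they were Ttc5 (difference 0.03) and 1110004F10Rik (0.04), and for Braf Tmem245 (0.05) and Qser1 (0.05). Araf was closest to Dus3l (0.03) and Rab33b (0.05), Map2k1 to Cwc25 (0.03) and Exoc2 (0.03), Map2k2 to AI837181 (0.02) and the transcription factor gene Srf (0.03), and Mapk3 to Foxk2 (0.02) and Psmc3 (0.03). These differences are in log2 units over 6 libraries and describe likeness of profile alone.

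The stretches just before the start of transcription are shown for the 3 members that were called, since they precede the annotated starts of the genes whose transcript levels differed. They come from RefSeq on GRCm38.p6, for which 6 of the 7 members matched, and were trimmed so that no annotated exon is included. Capitals mark matches, on either strand, to the GC box GGGCGG, the CCAAT box CCAAT, the E-box CACGTG and the cyclic AMP response element TGACGTCA, a set chosen after the sequences were seen.
Nras, chr3:103058187-103058284, plus strand: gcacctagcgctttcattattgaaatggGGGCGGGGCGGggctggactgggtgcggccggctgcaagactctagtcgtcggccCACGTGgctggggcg
Hras, chr7:141194006-141194114, minus strand: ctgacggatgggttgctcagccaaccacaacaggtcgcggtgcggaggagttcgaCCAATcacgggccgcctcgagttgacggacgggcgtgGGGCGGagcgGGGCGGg
Braf, chr6:39725464-39725573, minus strand: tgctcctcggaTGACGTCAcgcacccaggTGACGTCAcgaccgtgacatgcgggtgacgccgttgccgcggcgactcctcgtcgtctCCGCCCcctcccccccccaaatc
Nras had 2 overlapping GC boxes and 1 E-box in this window, Hras had 2 GC boxes and 1 CCAAT box, and Braf had 2 cyclic AMP response elements and 1 GC box. Among 27025 promoters, windows of 110 bases held a GC box in 26.1%, a CCAAT box in 21.0%, an E-box in 3.40% and a cyclic AMP response element in 1.27%. Since the motifs were chosen after the sequences were seen, these shares are no test of the members. The median share of G and C in those windows was 54.55%, against 63.6% for Nras, 70% for Hras and 69.1% for Braf. Members that were not called held matches too. Counted over the 110 bases before trimming, Map2k1 had 3 GC boxes and 1 CCAAT box, Map2k2 had 1 GC box and Araf had 2 CCAAT boxes. Trimmed of annotated exon, the Map2k1 stretch has 84 bases, and not all of its 3 GC boxes lie in it. Map2k1, Map2k2 and Araf had no E-box or cyclic AMP response element in the window. A match describes the letters and not binding, which was not measured.

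Around the core, genes that load RAS with GTP differed in direction. Of 19 listed adaptors and exchange factors 17 were measured, and 3 of these were higher with the inhibitor and 7 lower, with a median log2 fold change of -0.07. Over all genes 23.6% were called higher and 22.9% lower, the shares to set beside this count and those of the lists below. Sos2, an exchange factor that couples receptors to RAS, had 532 ± 25.4 normalized counts with the inhibitor and 984 ± 141 with DMSO (SD, n = 3 each; limma adjusted p = 5.33e-05). Ptpn11, the phosphatase SHP2 that supports RAS activation, had 2844 ± 237 with the inhibitor and 4255 ± 196 with DMSO (adjusted p = 0.000234). Exchange factors of the RASGRP family differed among themselves: Rasgrp3 had 373 ± 17.8 with the inhibitor and 82.5 ± 46.6 with DMSO (limma adjusted p = 9.32e-05), whereas Rasgrp2, which acts mainly on RAP proteins, had 299 ± 46.5 with the inhibitor and 582 ± 35.2 with DMSO (adjusted p = 5.99e-05). Rasgrp4, named after its values were seen, had 116 ± 48.4 with the inhibitor and 78.4 ± 18.2 with DMSO, which missed the threshold (limma adjusted p = 0.133).

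GTPase-activating proteins return RAS to its inactive state. The list of such genes, to which Lztr1, a ubiquitin ligase adaptor for RAS proteins, was added, had 11 measured genes, of which 1 was higher and 3 lower, and the median log2 fold change was 0.01. Rasa2 was the higher one, with 1120 ± 68.4 normalized counts with the inhibitor and 780.1 ± 110 with DMSO (SD, n = 3 each; limma adjusted p = 0.00160). Rasa3 had 2454 ± 260.0 with the inhibitor and 3711 ± 192 with DMSO (adjusted p = 0.000296), Rasa4 had 1434 ± 435 with the inhibitor and 1985 ± 91.9 with DMSO (adjusted p = 0.0207, groups overlapping), and Lztr1 had 697 ± 98.6 with the inhibitor and 845 ± 23.3 with DMSO (adjusted p = 0.0438). Nf1, the neurofibromin gene, differed little, with 1070.3 normalized counts with the inhibitor and 1104 with DMSO (limma adjusted p = 0.902), and was named after its values were seen. With DMSO library 3 or inhibitor library 2 left out, 1 gene was lower, and 2 genes were higher without DMSO library 2.

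RAS proteins reach the membrane after a lipid is attached. Of 10 measured genes of lipid processing and transport, 3 were higher and 4 lower, with a median log2 fold change of -0.07. Fnta, the shared subunit of both prenyl transferases, had 1258 ± 20.2 normalized counts with the inhibitor and 945 ± 45.4 with DMSO (SD, n = 3 each; limma adjusted p = 0.00121), whereas Pggt1b, a partner of Fnta in one of these transferases, had 404 ± 19.0 with the inhibitor and 623 ± 53.5 with DMSO (adjusted p = 0.000341). Lypla1, an enzyme that removes palmitate, had 1964 ± 180.0 with the inhibitor and 1517 ± 72.2 with DMSO (adjusted p = 0.00484), and Rce1, the protease of prenylated proteins, had 375 ± 23.8 with the inhibitor and 463 ± 14.1 with DMSO (adjusted p = 0.0204). The count of lower genes was 1 without DMSO library 1, inhibitor library 2 or inhibitor library 3 and 2 without DMSO library 3.

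Other GTPases of the RAS subfamily were mostly higher. Of 15 listed, 13 were measured, and 10 of these were higher and 1 lower, with a median log2 fold change of 0.37. Over all genes 23.6% were called higher and 22.9% lower. Rit1 had 484 ± 18.1 normalized counts with the inhibitor and 284 ± 28.7 with DMSO (SD, n = 3 each; limma adjusted p = 0.000123). Rap2a had 494 ± 23.5 with the inhibitor and 254 ± 92.0 with DMSO (adjusted p = 0.00110), Rras2 had 137 ± 8.41 with the inhibitor and 83.4 ± 2.05 with DMSO (adjusted p = 0.00141), and Ralb had 1397 ± 44.3 with the inhibitor and 1061 ± 57.7 with DMSO (adjusted p = 0.00169). The lower gene was Rhebl1, named after its values were seen, with 79.1 normalized counts with the inhibitor and 145 with DMSO (limma adjusted p = 0.00175). Without DMSO library 1, DMSO library 3 or inhibitor library 2, 5 of these genes were higher in place of 10.

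Scaffolds hold RAF, MEK and ERK together. Of 16 listed scaffolds and modulators 13 were measured, 3 were higher and 1 lower, and the median log2 fold change was 0.07. Pea15a, which binds ERK in the cytosol, had 421 ± 40.4 normalized counts with the inhibitor and 150 ± 74.7 with DMSO (SD, n = 3 each; limma adjusted p = 0.000436). Iqgap1 had 14066 ± 836 with the inhibitor and 9591 ± 634 with DMSO (adjusted p = 0.000762), and Lamtor3, the MEK1 partner on late endosomes, had 1088 ± 92.8 with the inhibitor and 781 ± 101 with DMSO (adjusted p = 0.00312). Ksr1, the scaffold closest to RAF kinases, was the lower one, with 45.2 ± 2.50 with the inhibitor and 80.1 ± 18.3 with DMSO (adjusted p = 0.00768).

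Among 22 measured kinases of the JNK, p38 and ERK5 modules, which are built like the core but carry other signals, 7 were higher and 6 lower, with a median log2 fold change of 0.05. Map2k4, which activates JNK and p38, had 1332 ± 43.4 normalized counts with the inhibitor and 900.2 ± 84.6 with DMSO (SD, n = 3 each; limma adjusted p = 0.000320), and Map3k7, the kinase TAK1, had 2731 ± 195 with the inhibitor and 1907 ± 76.5 with DMSO (adjusted p = 0.000381). Map2k5, which activates ERK5, had 363 ± 16.0 with the inhibitor and 544 ± 38.7 with DMSO (adjusted p = 0.000499), whereas Mapk7, ERK5 itself and named after its values were seen, had 233 ± 12.9 with the inhibitor and 148 ± 2.15 with DMSO (adjusted p = 0.000778). Map3k6 had 80.0 ± 5.29 with the inhibitor and 147 ± 3.79 with DMSO (adjusted p = 0.000375).

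Downstream, of 7 measured kinases that ERK activates, 2 were higher and 1 lower. Mknk2, which phosphorylates the cap-binding protein eIF4E, had 4054 ± 423 normalized counts with the inhibitor and 5232 ± 356 with DMSO (SD, n = 3 each; limma adjusted p = 0.00782). Rps6ka4 had 886 ± 74.1 with the inhibitor and 708 ± 27.5 with DMSO (adjusted p = 0.0120), Rps6ka2 had 56.6 ± 1.96 with the inhibitor and 36.3 ± 7.92 with DMSO (adjusted p = 0.0253), and Rps6ka5 had 1071 ± 98.9 with the inhibitor and 1219.6 ± 22.9 with DMSO (adjusted p = 0.0926). Without DMSO library 1, DMSO library 3, inhibitor library 1 or inhibitor library 2, 1 was higher; without inhibitor library 1, 2 were lower, and without inhibitor library 2, 0.

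Of 18 measured feedback and output genes, most of which are known to be induced by ERK signalling, 6 were higher and 1 lower, with a median log2 fold change of 0.25. The shares over all genes were 23.6% higher and 22.9% lower. Ccnd1, cyclin D1, had 20596 ± 1776 normalized counts with the inhibitor and 8001 ± 689 with DMSO (SD, n = 3 each; limma adjusted p = 2.32e-06), and Ier3 had 237 ± 7.27 with the inhibitor and 72.8 ± 26.5 with DMSO (adjusted p = 4.62e-05). Phlda1 had 36.1 ± 8.34 with the inhibitor and 8.83 ± 3.70 with DMSO (adjusted p = 0.000778). Etv4, an ETS transcription factor, was the lower one, with 382 ± 21.5 with the inhibitor and 748 ± 36.4 with DMSO (adjusted p = 8.62e-06). Dusp6, the phosphatase of ERK, had 3869 normalized counts with the inhibitor and 3386 with DMSO (limma adjusted p = 0.184) and was named after its values were seen. With DMSO library 1 or inhibitor library 1 left out, 2 of these genes were lower.

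RAS also acts through effectors other than RAF. Of 18 measured genes of the PI3K, RAL and other effector arms, 5 were higher and 3 lower, with a median log2 fold change of -0.10. Pik3r5, the regulatory subunit of PI3K gamma, had 920.1 ± 36.7 normalized counts with the inhibitor and 311 ± 20.5 with DMSO (SD, n = 3 each; limma adjusted p = 2.35e-07). Pik3cb had 1182 ± 185 with the inhibitor and 739 ± 49.1 with DMSO (adjusted p = 0.000589). The RAL exchange factors Rgl1 and Ralgds were higher too, Rgl1 with 677 ± 17.2 with the inhibitor and 341 ± 47.8 with DMSO (adjusted p = 2.60e-05) and Ralgds with 1385 ± 83.3 with the inhibitor and 906 ± 168 with DMSO (adjusted p = 0.00125).

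**Figure D4:**
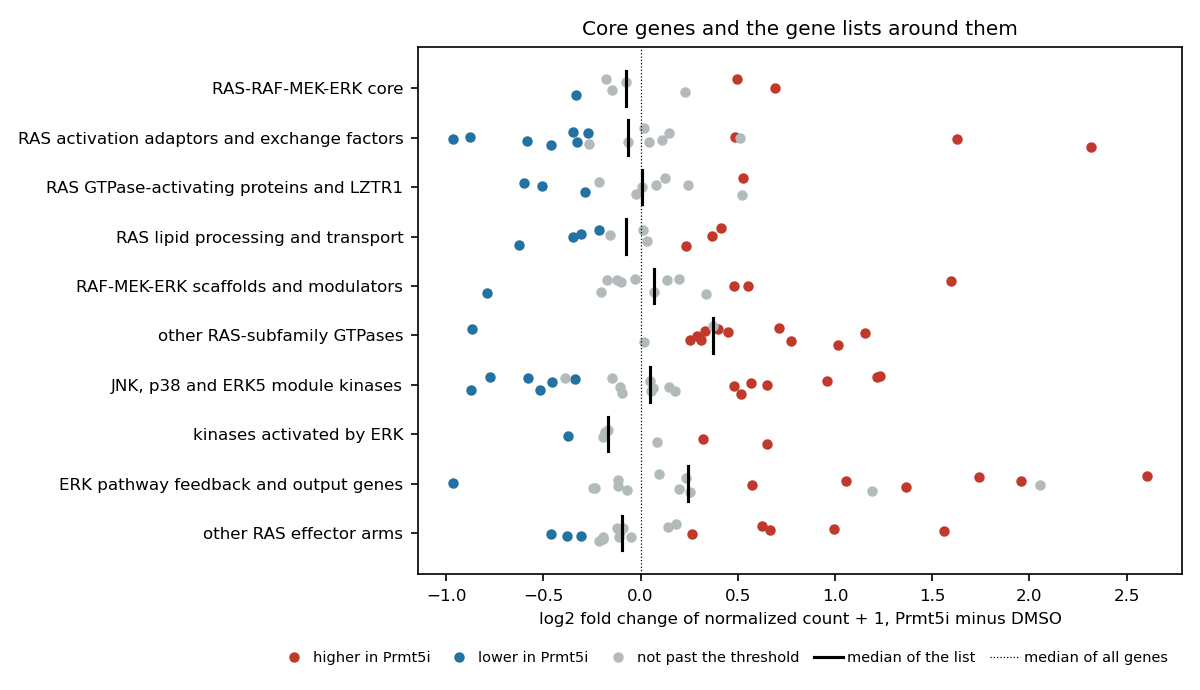
Log2 fold change of the normalized count + 1, inhibitor minus DMSO (horizontal axis), of the measured genes of the core and of each list around it (1 dot per gene, coloured by call), with a black bar at each list's median and a dotted line at the median of all genes. The core spans -0.33 to 0.69, and the list of other RAS-subfamily GTPases has its median at 0.37.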

How the data were processed

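Groups and replicate numbers came from the sample titles. Per the labels' protocols, libraries were made with a stranded poly-A kit. TopHat2 2.0.10, HTSeq 0.6.0, DESeq 1.16.0 and CASAVA 1.8.2 stand in the submitters' processing notes, as does mm10; for annotation and strand setting, nothing is stated there. The authors deposited a normalized signal, that is, read counts over a library's size factor; within a tolerance of 1e-06 all values (100%) were whole multiples of 1 step, so whole reads were recovered. No further filter was set; the best library of every gene has 10 or more reads.

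The fit was limma-trend on log2(normalized count + 1), in limma 3.58.1 under R 4.3.3, two-sided, over all 11644 genes, with Benjamini-Hochberg adjustment, a threshold of 0.05 and 4 residual degrees of freedom; the scale understates changes of low genes. On recovered reads, edgeR 4.0.16 called 5412 genes, against 5418 by limma, and DESeq2 1.42.0 called 4999. No libraries of a group agreed within sampling noise (chi-square per degree of freedom 9.43 to 20.7).

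Lists and members were chosen with earlier results of these data known. Named genes are the members, up to 4 genes of each list with the smallest adjusted p, and the 2 most similar profiles per member; further list genes were named after their values were seen, as marked, and markers, neighbouring genes, Prmt5 and Trib3 stand outside this rule. Of the gene lists planned, 1 was left out and 1 was shortened, since some genes are not reported here. Gene models came from GENCODE mouse release 21 (mm10) and promoters from RefSeq.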

Additional observations from a re-analysis of the deposited data

How the results depend on the processing

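The directions of all 7 members held under every alternative run. Nras (0.54 to 0.83 on the log2 scale) and Hras (0.47 to 0.52) stayed past the threshold in all 14 alternatives each, and Braf (-0.45 to -0.19) in 10 of 14. Same-numbered libraries deviated together from their group means with correlations of 0.24, 0.07 and 0.27 across 9028 genes, and each inhibitor library correlated best with the DMSO library of its own number, a hint from the data and not from the design. With a replicate block, the members called were 3 higher and 1 lower, because Map2k1 passed (adjusted p = 0.0350), and 5932 genes (50.9%) were called in all.

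With a 1.5-fold minimum as well, which 22.1% of all genes passed, counts were 1 higher and 0 lower for the members, 2 lower for the adaptors, 0 higher and 1 lower for the GTPase-activating proteins, 0 higher and 1 lower for lipid processing, 1 higher for scaffolds, 4 higher for other GTPases, 4 higher and 2 lower for JNK, p38 and ERK5 kinases, 1 higher and 0 lower for kinases activated by ERK, and 0 lower for other effectors. A minimum mean of 100 normalized counts left 0 lower scaffolds, 1 higher kinase activated by ERK and 3 higher feedback genes. DESeq2 called 2 lower lipid processing genes and 1 higher kinase activated by ERK, and edgeR and log2 CPM with TMM called 2 lower feedback genes.

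With 1 library left out, the members called ranged from 2 to 3 higher and 0 to 1 lower, while 35.6% to 45.9% of all genes were called. Ranges were 1 to 2 higher and 1 to 3 lower for GTPase-activating proteins, 1 to 4 lower for lipid processing, 5 to 10 higher for other GTPases, 1 to 2 higher and 0 to 2 lower for kinases activated by ERK, and 1 to 2 lower for feedback genes. The cause of these changes was not tested. With the transcript of the longest coding sequence as length, an alternative chosen after seeing the data, Araf stood at 423 normalized counts per kilobase with the inhibitor and 472 with DMSO. Araf then lay above all Mapk3 values in DMSO libraries, and the values of these genes overlapped in inhibitor libraries.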
